A study of Homo sapiens with 18 samples.

Results

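Convergent gene ends are places where 2 neighbouring genes on opposite strands run toward each other and finish tail to tail. Such pairs were taken from the GENCODE annotation of the human genome (build GRCh37, also called hg19). A pair consisted of a protein-coding gene on the plus strand and a protein-coding gene on the minus strand whose annotated 3′ ends faced each other, 0 to 5 kb apart, with no overlap of the gene bodies and no other protein-coding gene over the gap. This gave 1109 pairs, which hold 2218 (11.01%) of the 20144 protein-coding genes examined. The region of a pair ran from 2 kb inside the 3′ end of the plus-strand gene to 2 kb inside the 3′ end of the minus-strand gene. Genes shorter than 2 kb were taken whole, so their transcription start lies in the region. Regions were 1048 to 8985 bp long, with a median of 5390 bp, and added up to 6.37 Mb. Pairs are written with the plus-strand gene first, as in RPL10A/TEAD3. The reference consisted of 9373 isolated 3′ ends, with no other protein-coding gene over the 10 kb downstream. A second reference of 1830 tandem 3′ ends had a protein-coding gene of the same strand starting within 5 kb downstream.

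The maps come from DRIP-seq of HCT116 cells, a human epithelial colorectal carcinoma line. In this assay genomic DNA is cut with a cocktail of restriction enzymes, fragments that carry DNA-RNA hybrids are pulled down with the S9.6 antibody, and the recovered DNA is sequenced. Cells were untreated (NT) or treated with 10 μM camptothecin (CPT), an inhibitor that traps topoisomerase I on DNA, for 5 min or for 60 min, with 2 biological replicates per condition. For each replicate there were 3 libraries: DRIP, DRIP after the DNA had been treated with RNase H, the enzyme that degrades the RNA of hybrids, and input. The 6 DRIP and 6 RNase H peak lists were analysed. All groups share the same line, culture medium and enzyme cocktail, and no allele, transgene or knockdown separates them.

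When an RNA polymerase reaches the end of a gene it cleaves and polyadenylates the transcript but continues to transcribe the downstream DNA until it is released. Nascent RNA can pair there with its template and leave the other DNA strand single, a structure called an R loop. Where genes converge, polymerases arriving from both sides meet in the same short stretch, and topoisomerase I is the enzyme that relaxes the supercoils built up ahead of and behind them. DRIP-seq pulls down whole restriction fragments and does not tell the strands apart, so a peak between convergent genes cannot be assigned to either transcript.

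The gap between the 3′ ends ranged from 0 to 4985 bp, with quartiles at 533, 1412 and 2964 bp. In 440 pairs it was under 1 kb, and in 5 pairs the annotated ends touched with no base between them. The following gap sequences show how little DNA can separate convergent ends. They are the whole gap on the plus strand of GRCh37, and no base is marked by capitals. They were chosen among the 21 pairs with a gap of at most 30 bases to show different outcomes in the peak lists.
SMTN/SELENOM, chr22:31500744-31500757: cgaaggagtcgagc
TM7SF2/ZNHIT2, chr11:64883857-64883874: agaaacaagcaacagggc
NHERF4/CCDC153, chr11:119060933-119060958: tctgccaaacggccagagcccacagc
ARMC10/NAPEPLD, chr7:102740207-102740222: cttacaaggttataca
The SMTN/SELENOM region, with its gap of 14 bases between the gene of the smooth muscle protein smoothelin and that of a selenoprotein, had a peak in all 6 DRIP lists. TM7SF2/ZNHIT2, 18 bases apart, had a peak in 5 lists. NHERF4/CCDC153, 26 bases apart, and ARMC10/NAPEPLD, 16 bases apart, had a peak in none. The G+C content of these regions was 58.0% for SMTN/SELENOM, 62.3% for TM7SF2/ZNHIT2, 54.6% for NHERF4/CCDC153 and 35.4% for ARMC10/NAPEPLD.

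A second set of sequences shows where peaks between convergent genes begin or stop. The cocktail was searched for as HindIII (AAGCTT), EcoRI (GAATTC), XbaI (TCTAGA), SspI (AATATT) and BsrGI (TGTACA), which read the same on both strands, and sites of different enzymes can share their outer bases. At least 1 of these sites lay in 96.9% of convergent regions, in 99.5% of isolated regions and in 98.7% of the regions of all 20144 ends. Each line gives 30 bases of the gap on the plus strand of GRCh37, with the recognition site in capitals. All were shown because peaks of both replicates of a treatment had an edge in that site.
RPL10A/TEAD3, chr6:35438739-35438768: ctaacggcattgAAGCTTtttgacaggatt
ADO/EGR2, chr10:64568253-64568282: taaatgcttctgAAGCTTttaaagtatctg
KDM8/NSMCE1, chr16:27234422-27234451: tcctggaaggtcTGTACAtcagctcctccc
KAT7/TAC4, chr17:47913812-47913841: gatcttggcaaaGAATTCactcaccaggat
LSM14B/PSMA7, chr20:60711206-60711235: tgttttgacaacTGTACAttttacgctgag
AKR1C1/AKR1C2, chr10:5028243-5028272: aatggtttactgAATATTttaagaccactg
The SspI site between AKR1C1 and AKR1C2 bounded a peak in all 6 DRIP lists, and the BsrGI site between LSM14B and PSMA7 bounded one in 4. Over the DRIP lists, between 30.9% and 40.1% of the edges of peaks at convergent regions fell inside a recognition site, against 25.9% to 33.5% of the edges of all other peaks. DRIP-seq places a hybrid within a restriction fragment and not at a base.

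The lists held 30314 to 72879 peaks per DRIP library and 473 to 67188 per RNase H library, and the list of replicate 2 was the longer one in every condition. DRIP peaks covered 0.87% to 2.87% of the genome. The peak files hold no read counts, and a missing peak is a call below the authors' threshold. The study's sequencing report lists fewer reads after filtering for the first replicate than for the second in every condition, in DRIP and RNase H libraries alike, and most so, as a ratio, for the RNase H libraries after CPT. The part of depth in the difference between replicates was not tested. With 2 libraries per condition the smallest p an exact permutation test between conditions can give is 0.333.

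Convergent regions were covered by DRIP peaks far more than isolated 3′ ends in every library. In NT the peaks covered 17.3% of the bases of convergent regions in replicate 1 and 26.9% in replicate 2, against 2.15% and 4.52% at isolated ends. After 5 min of CPT they covered 5.49% and 15.6%, against 1.26% and 2.76%. After 60 min they covered 13.6% and 24.6%, against 2.28% and 5.16%. The lowest convergent value, of 5 min replicate 1, lay above the highest isolated one, of 60 min replicate 2. The mean within-library difference was 14.2 percentage points (SD 6.40, n = 6 libraries), positive in 6 of 6 libraries. An exact sign-flip permutation test over the libraries, two-sided, gave p = 0.03125, the smallest p that 6 libraries allow, and 0.0365 after Benjamini-Hochberg adjustment over 7 tests of this kind.

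**Figure D1:**
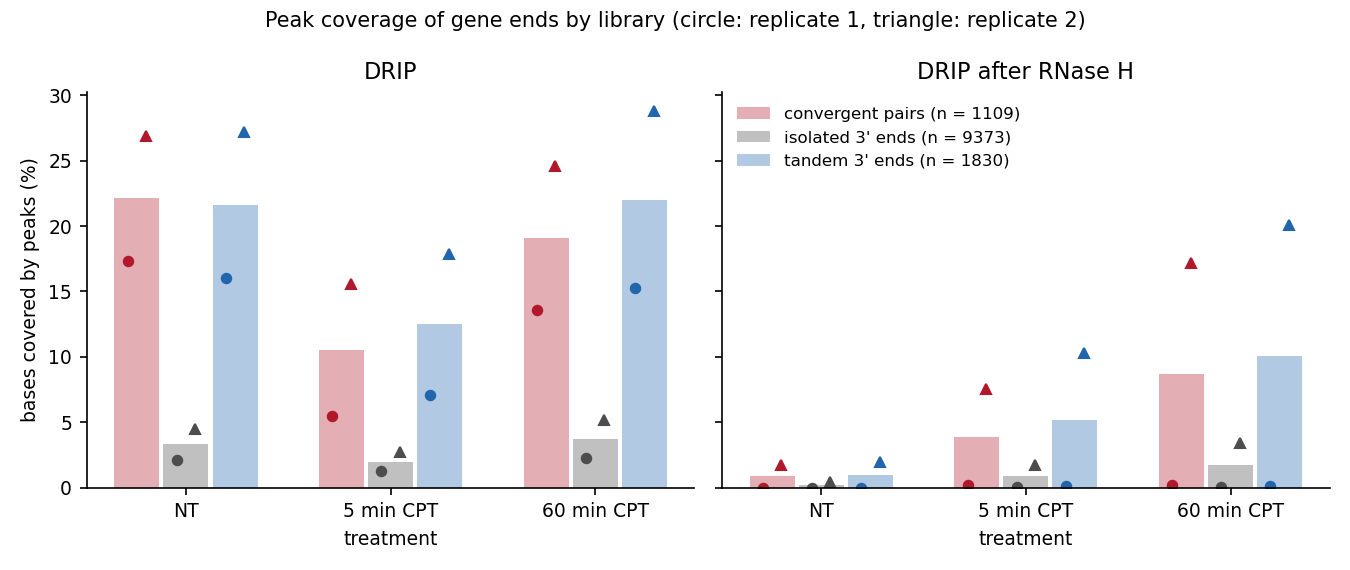
Percent of bases covered by peaks (y axis) at convergent pairs, isolated 3′ ends and tandem 3′ ends, for each treatment (x axis), in DRIP libraries (left) and after RNase H (right). Bars are means of 2 replicates and symbols are the replicates. In DRIP, convergent pairs at 5.49% to 26.9% sit above isolated ends at 1.26% to 5.16% and overlap tandem ends; in RNase H, the triangles of replicate 2 stand far above the circles.

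The same held for the number of regions that had any peak. In NT, 429 convergent regions in replicate 1 (38.7%, 95% Wilson interval 35.9 to 41.6%) and 587 in replicate 2 (52.9%, 49.99 to 55.9%) overlapped a peak by at least 1 bp. After 5 min these numbers were 241 (21.7%, 19.4 to 24.3%) and 493 (44.5%, 41.6 to 47.4%), and after 60 min 391 (35.3%, 32.5 to 38.1%) and 550 (49.6%, 46.7 to 52.5%). These intervals cover counting error only. At isolated ends the share was 7.6% to 15.7%. The mean difference was 28.8 percentage points (SD 8.16, n = 6, higher in 6 of 6 libraries, exact sign-flip p = 0.03125, adjusted p = 0.0365). Relative to the whole genome, convergent regions were covered 15.97-fold and 12.9-fold more in NT, 6.29-fold and 9.46-fold more at 5 min, and 11.2-fold and 8.55-fold more at 60 min.

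Base composition and the density of restriction sites differ between these sets. The median G+C content was 50.5% for convergent regions, 42.6% for isolated ends, 51.7% for tandem ends and 45.2% for all ends. Convergent regions carried 1.28 enzyme sites per kb and isolated regions 1.73. The restriction fragment at the middle of the region had a median length of 1575 bp at convergent pairs and 1089 bp at isolated ends. Among regions of 40 to 50% G+C alone, the excess over isolated ends was 4.59 points in place of 14.2 (exact sign-flip p = 0.03125, n = 6 libraries). The difference was also taken within 15 of 20 possible classes of similar G+C and fragment length, a choice made after seeing the data. Classes with fewer than 20 regions in either set were left out, and 1064 pairs remained. The outermost classes have no outer bound, so the sets can still differ within them. Mean coverage was higher at convergent pairs in all 15 classes, by 0.90 to 28.7 points, and in 14 of them in all 6 libraries. Weighted by the number of pairs, the difference within classes was 11.3 points (SD 4.71, n = 6 libraries, 6 of 6 positive, exact sign-flip p = 0.03125). Transcription of the genes was not measured in these files, and its part in the difference was not tested.

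Convergent and tandem ends overlapped in coverage. Tandem ends were covered to 15.999% and 27.2% in NT, 7.11% and 17.9% at 5 min, and 15.2% and 28.8% at 60 min. The convergent value was lower in 5 of 6 libraries, by 1.46 points on average (SD 1.87, n = 6, exact sign-flip p = 0.0938). That sign depended on the regions compared. A protein-coding transcription start lay in 77.5% of tandem regions and in 10.0% of convergent ones. Among regions without such a start, convergent pairs were covered more, by 5.65 points (exact sign-flip p = 0.03125 over 6 libraries). Tandem regions reach 3412 bp downstream, so those without a start have their next gene farther off than that. The convergent pairs kept could have any gap from 0 to 5 kb. All convergent pairs with gaps under 500 bp were covered to 26.9%, and those with gaps of 3 kb or more to 12.3%. The sets were not compared at equal distances to the next gene.

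**Figure D2:**
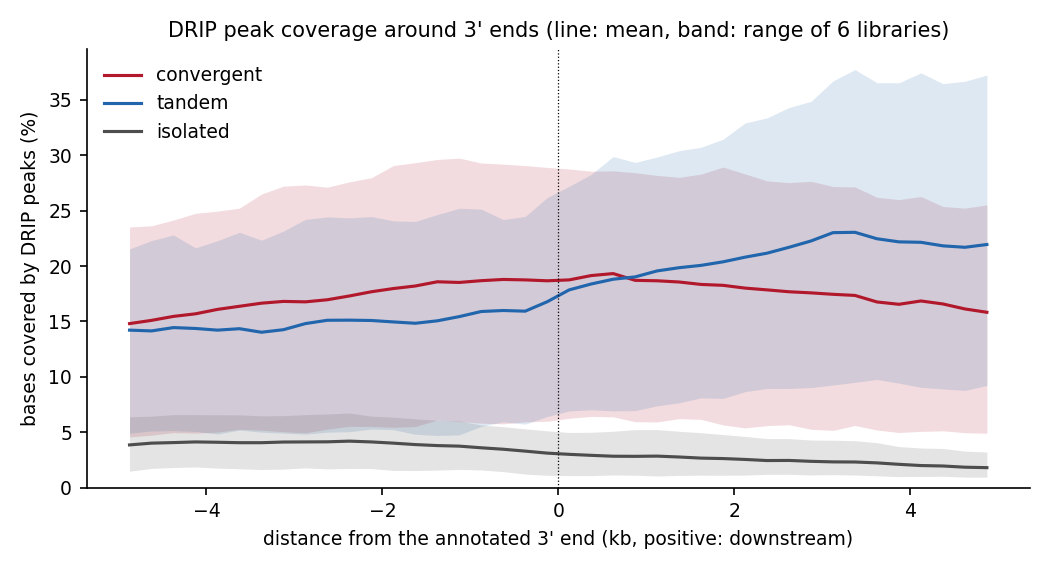
Percent of bases covered by DRIP peaks (y axis) against distance from the annotated 3′ end in kb (x axis, positive values downstream), in bins of 250 bp. Lines are means and bands the range of 6 libraries. The convergent line is nearly level and highest just past the 3′ end, the tandem line climbs downstream, and the isolated line stays at the bottom.

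Around the 3′ ends of convergent genes the coverage was broad and flat. Averaged over the 6 DRIP libraries, it was 14.8% (SD 7.03) in the bin centred 4875 bp upstream of the end and 18.8% in that 125 bp downstream of it. At tandem ends it climbed from 17.9% in the bin 125 bp downstream to 23.01% in that 3125 bp downstream. With bases pooled over all pairs, the gaps were covered less than the 2 kb inside the genes. Pairs with longer gaps give more of the gap bases. Regions with gaps of 3 kb or more were covered to 12.3% on average, and those with gaps under 500 bp to 26.9%. The pooled values therefore do not compare gap and gene ends of the same pair. In the bin 125 bp upstream of the end, mean coverage was 18.7%, near that 125 bp downstream. In NT the gap was covered to 13.7% and 21.6% and the gene ends to 19.0% and 29.4%. The values were 4.94% and 14.1% against 5.75% and 16.3% at 5 min, and 11.3% and 21.7% against 14.6% and 25.9% at 60 min. The mean difference was -3.92 points (SD 2.44, n = 6, 0 of 6 positive, exact sign-flip p = 0.03125, adjusted p = 0.0365). With DRIP peaks that met an RNase H peak left out it was -2.21 points, and p was 0.0625 in the same exact test. The polyadenylation hexamer AATAAA, searched on the sense strand in the last 40 bases of each gene, stood at 59.1% of convergent ends, 59.9% of isolated ends and 56.9% of all ends. A match is a description of the sequence only.

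Pairs with short gaps had more of their region under peaks. Pairs less than 1 kb apart were covered to 26.5% and 39.1% in NT, 7.75% and 22.1% at 5 min, and 20.9% and 34.3% at 60 min. Pairs at 1 to 5 kb were covered to 13.4% and 21.6% in NT, 4.52% and 12.8% at 5 min, and 10.4% and 20.4% at 60 min. The short-gap value was the higher one in 6 of 6 libraries, by 11.2 points on average (SD 4.84, exact sign-flip p = 0.03125 over the libraries, adjusted p = 0.0365). Median G+C was 54.4% in the 269 pairs with gaps under 500 bp and 46.6% in the 273 pairs with gaps of 3 kb or more. Among pairs of 40 to 50% G+C alone, the short-gap pairs were covered 5.34 points more, and among all pairs without the DRIP peaks that met an RNase H peak 5.92 points more (exact sign-flip p = 0.03125 for each, n = 6 libraries). At the limit of the definition, the 124 pairs with gaps of 4 to 5 kb were covered to 13.6% on average (SD 5.16, n = 6 libraries), and 85 further pairs at 5 to 6 kb, not counted as convergent here, to 7.74% (SD 3.88).

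In many pairs a single peak ran across the whole gap and into both genes. Such bridging peaks lay in 144 and 221 pairs in NT, 37 and 108 at 5 min, and 99 and 190 at 60 min. In NT, 244 and 364 pairs had peaks at both gene ends, 166 and 210 at only 1 of them, and 19 and 13 in the gap only. At 5 min, 73 and 244 pairs had peaks at both ends. Pairs with a peak in the gap only remained few, at 13 to 35 in all DRIP libraries. Peaks at convergent regions were also wider than the rest of their list. Their median width was 1199 and 1357 bp in NT, 715.5 and 723.5 bp at 5 min, and 805 and 1017 bp at 60 min, against 462 to 558 bp for all other DRIP peaks. A wide peak is more likely to overlap a given region, so this comparison cannot show a trait of convergent ends. Peaks at isolated or tandem ends were not compared in width. The 5 min libraries had the narrowest convergent peaks and the fewest bridged pairs of their replicate number.

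Digestion with RNase H left few peaks in replicate 1 and many in replicate 2. In replicate 1, peaks of the RNase H lists covered 0.02% of convergent regions in the untreated cells, 0.24% after 5 min of CPT and 0.23% after 60 min. In replicate 2 they covered 1.73%, 7.52% and 17.2%. DRIP coverage exceeded RNase H coverage of the same condition and replicate in 6 of 6 comparisons, by 12.8 points on average (SD 7.52, exact sign-flip p = 0.03125, adjusted p = 0.0365). The RNase H lists too covered convergent regions more than isolated ends in 6 of 6 libraries (mean difference 3.52 points, SD 5.47, exact sign-flip p = 0.03125), and this difference was 6.93 points in replicate 2 and 0.11 points in replicate 1 alone. It was 0.73 points with lists of equal size and 0.38 points with peaks shared by both replicates. Of the DRIP peaks at convergent regions, 0.30%, 5.06% and 3.70% met an RNase H peak of their own condition in the NT, 5 min and 60 min libraries of replicate 1, against 0.45%, 2.76% and 1.67% of the other DRIP peaks. For replicate 2 these shares were 18.8%, 43.6% and 62.6%, against 10.6%, 32.8% and 48.8% for the other DRIP peaks. In replicate 2 after CPT, a large part of the DRIP peaks at convergent regions was thus still called after RNase H. A wide peak meets an RNase H peak more readily, and the comparison with the other DRIP peaks was not matched for width. Without the peaks that met an RNase H peak, convergent regions still exceeded isolated ends by 8.23 points (exact sign-flip p = 0.03125, n = 6).

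Coverage of convergent regions was lower after 5 min of CPT than in NT within each replicate, by 11.8 points in replicate 1 and 11.3 points in replicate 2. The mean change was -11.6 points (SD 0.35, n = 2), and both 5 min libraries, at 5.49% and 15.6%, lay below both NT libraries, the lower of which was at 17.3%. The exact permutation test gave p = 0.333, the smallest that the design allows. At 60 min the change from NT was -3.75 and -2.33 points (mean -3.04, SD 1.00, n = 2, exact permutation p = 0.667), which was less than the difference between replicates. With DRIP peaks that met an RNase H peak left out, this change was -9.67 points (p = 0.333 in the same exact test). From 5 to 60 min coverage was higher by 8.08 and 9.001 points (mean 8.54, SD 0.65, n = 2, exact permutation p = 0.667), and by 2.86 points without the peaks that met an RNase H peak (exact permutation p = 1.0). Relative to isolated ends of the same library, convergent regions were covered 8.05-fold and 5.96-fold more in NT, 4.35-fold and 5.65-fold more at 5 min, and 5.94-fold and 4.76-fold more at 60 min. The ratio changed by -0.48 on the log2 scale at 5 min, with -0.89 in replicate 1 and -0.08 in replicate 2, and by -0.38 at 60 min, with -0.44 and -0.32 (exact permutation p = 0.333 for both). The 60 min value was -0.67 without the peaks that met an RNase H peak (exact permutation p = 0.667).

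The change after CPT differed in sign with the base composition of the pair. In the 351 pairs of 55% G+C or more, peaks covered 44.8% and 63.6% in NT, 11.04% and 32.1% at 5 min, and 30.1% and 47.4% at 60 min. Both 5 min libraries lay below both NT libraries there. In the 209 pairs under 40% G+C they covered 0.08% and 0.26% in NT, 0.55% and 2.83% at 5 min, and 1.30% and 5.24% at 60 min. Every CPT library lay above both NT libraries in this class. NT coverage was near its lower limit there, which leaves little room for a fall. The CPT DRIP lists also held more peaks than the NT list of the same replicate. RNase H lists of replicate 2 covered 0.06% of this class in NT, 0.68% at 5 min and 1.93% at 60 min. The 152 pairs at 40 to 45% G+C had 1.54% and 1.98% in NT, 1.77% and 4.96% at 5 min, and 3.16% and 10.4% at 60 min. In the 174 pairs at 45 to 50% the values were 4.92% and 11.1%, 3.04% and 10.4%, and 6.03% and 16.7%. Isolated ends followed the same order. Those of 55% G+C or more were covered to 16.4% and 31.2% in NT and 4.91% and 12.2% at 5 min, and those under 40% to 0.16% and 0.20% in NT and 0.48% and 0.70% at 5 min. Over pairs of 40 to 50% G+C only, the mean change at 5 min was 0.06 points, and that at 60 min 4.27 points, against -11.6 and -3.04 points over all pairs. The DRIP peaks at convergent regions had a median G+C of 58.1% and 56.8% in NT, 55.7% and 55.1% at 5 min, and 55.8% and 54.1% at 60 min, and the other peaks of these lists moved from 51.0% and 51.8% to 44.6% and 47.8% and then 48.9% and 47.4%. The sign of the change thus moved with the base composition of the region, at convergent and at isolated ends alike, and the cause was not tested.

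**Figure D3:**
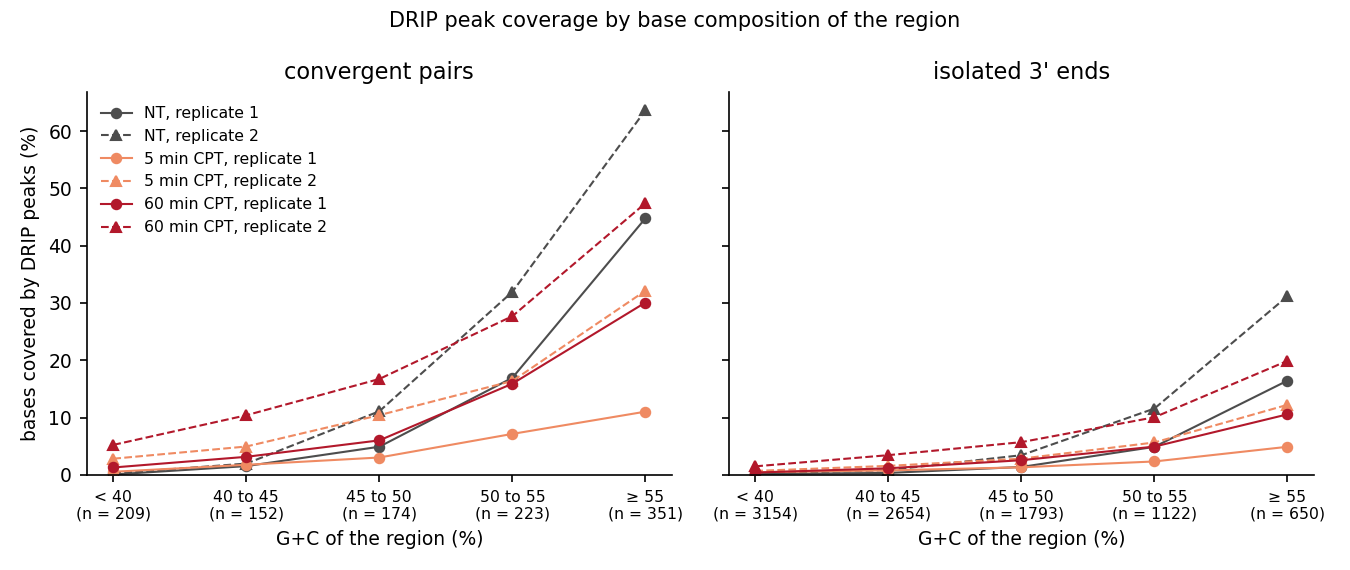
Percent of bases covered by DRIP peaks (y axis) by G+C content of the region (x axis, percent, with the number of regions), for convergent pairs (left) and isolated 3′ ends (right). Circles with solid lines are replicate 1 and triangles with dashed lines replicate 2. In the highest class of convergent pairs NT stands at 44.8% and 63.6% and 5 min CPT at 11.04% and 32.1%, and in the lowest class all CPT points lie above NT.

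Coverage also differed with the length of the restriction fragment at the middle of the gap. In the 363 pairs with a fragment under 1 kb it averaged 7.38% (SD 4.01, n = 6 libraries), in the 320 pairs at 1 to 2 kb 12.1% (SD 6.08), in the 260 pairs at 2 to 4 kb 20.04% (SD 10.04), and in the 166 pairs at 4 kb or more 47.8% (SD 18.3). Of the pairs in the longest class, 45.2% had a peak in all 6 DRIP lists, against 5.51% in the shortest. Median G+C was higher along these classes too, from 43.9% to 59.0%. Among pairs of 50 to 55% G+C alone, coverage was 12.8% (SD 5.99) in the 59 pairs with the shortest fragments and 34.03% (SD 13.9) in the 30 pairs with the longest.

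**Figure D4:**
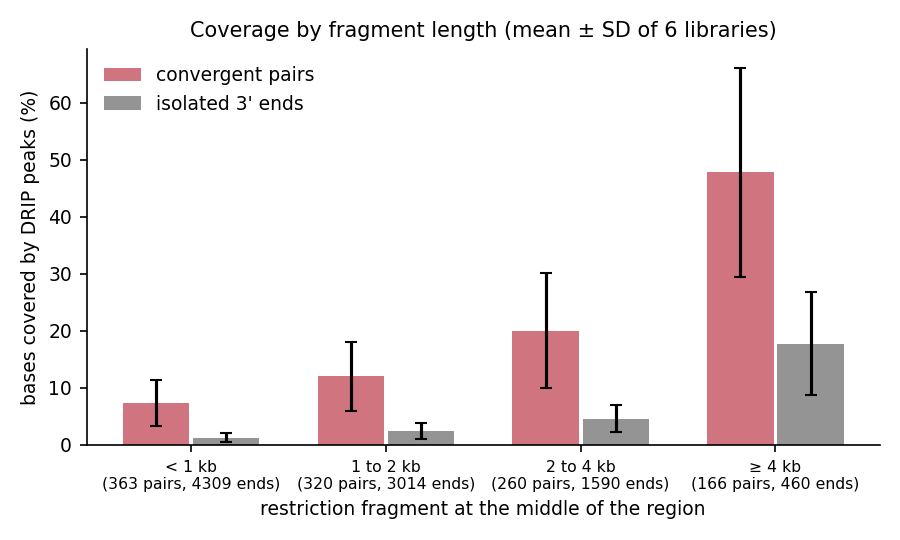
Percent of bases covered by DRIP peaks (y axis) by the length of the restriction fragment at the middle of the region (x axis), for convergent pairs and isolated 3′ ends. Bars are means and error bars SDs of 6 libraries. Coverage is 7.38% in convergent pairs with fragments under 1 kb and 47.8% in those with fragments of 4 kb or more.

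Presence was then followed pair by pair. A region was called lost when both NT libraries and neither library of a CPT time had a peak in it, and gained in the opposite case. These calls carry no test. At 5 min, 68 of the 1109 pairs (6.13%) were lost, where 3.05% of all 20144 ends were, and 18 (1.62%) were gained, where 1.47% of all ends were. At 60 min, 49 pairs (4.42%) were lost, against 2.53% of all ends, and 45 (4.06%) were gained, against 3.4% of all ends. Because more pairs had a peak to lose, the losses were also read against the pairs present in NT. Of the 411 pairs with a peak in both NT libraries, 16.6% were lost at 5 min, near the 15.99% of all ends so present, and 11.9% at 60 min, where all ends had 13.3%. Of the 504 pairs with no NT peak, 3.57% were gained at 5 min and 8.93% at 60 min, against 2.17% and 5.02% of all ends. Tandem ends with no NT peak were gained more often than pairs, at 5.46% and 11.2%, and isolated ones less often, at 1.26% and 2.8%. Calls made from a single replicate were more numerous, for pairs and for all ends alike. In replicate 1 alone, 228 pairs (20.6%) were lost at 5 min, against 2223 of the 20144 ends, and 40 (3.61%) were gained, against 4.55%. In replicate 2 alone, 182 (16.4%) were lost, against 10.4%, and 88 (7.94%) were gained, against 6.89%. At 60 min, replicate 1 alone gave 126 losses (11.4%, against 6.83%) and 88 gains (7.94%, against 7.56%). Replicate 2 alone gave 154 losses (13.9%, against 8.51%) and 117 gains (10.6%, against 9.8%). Only regions with an NT peak in that replicate can be lost. These were 429 pairs and 4227 ends in replicate 1, and 587 pairs and 6139 ends in replicate 2. The single-replicate shares of losses were not corrected for this.

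By covered bases in place of presence, 284 pairs (25.6%) had fewer covered bases in both 5 min libraries than in either NT library, against 11.3% of all ends. In 34 pairs (3.07%) both 5 min libraries had more, against 2.67% of all ends. At 60 min, 162 pairs (14.6%) had fewer covered bases without overlap, against 6.91% of all ends, and 97 (8.75%) had more, against 6.93%. Only regions with a peak in both NT libraries can have fewer, and these were 411 of 1109 pairs and 3845 of 20144 ends. The shares with fewer covered bases therefore also reflect how often a peak was present in NT. Among tandem ends, 18.9% had fewer at 5 min and 8.96% at 60 min.

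Pairs with a peak in all 6 DRIP lists numbered 173 (15.6%), where 8.32% of all ends were so marked and 2.21% of isolated ends. At least 1 DRIP list had a peak in 753 pairs (67.9%), against 45.8% of all ends, and 356 pairs had none. The 173 pairs had a median G+C of 57.6%, a median of 2 enzyme sites in the region and a median fragment of 3497 bp, where the 356 pairs without a peak had 42.2%, 10 sites and 997.5 bp. On chromosomes 19, 17, 9 and 7 the share of pairs in all 6 lists was 27.0%, 26.8%, 26.4% and 28.9%, and on chromosomes 2, 3, 14 and 15 it was 5.80%, 5.88%, 3.23% and 2.78%. The median G+C of the pairs was 56.9% on chromosome 19 and 42.1% on chromosome 14. Of the 173 pairs, 172 met an RNase H peak in at least 1 list, 150 of them in replicate 2 alone.

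The strongest pairs were ranked by the percentile of fold enrichment within each list, a peak at percentile 99.9 standing above 99.9% of the peaks of its library. CDT1/APRT on chromosome 16 had its facing ends at 88875666 and 88875747. CDT1 encodes a replication licensing factor and APRT an enzyme of adenine salvage. Its region was covered to 100% in all 6 DRIP lists, at percentile 99.9 or above, by peaks 26803 to 30347 bp wide that spanned a restriction fragment of 26799 bp. The 2 replicates of 5 min gave a peak with the same start and end, 88867719 to 88894521. RNase H lists of replicate 2 covered this region to 100% in each condition and those of replicate 1 not at all. NDUFB10/RPS2, also on chromosome 16, joins genes of a complex I subunit and of a small ribosomal subunit protein 82 bp apart, and was covered to 96.3% at 60 min replicate 1 and to 100% in the other DRIP libraries. TNFRSF12A/HCFC1R1, the gene of a TNF-family receptor and its neighbour, was covered to 100% in all 6. The region of this last pair holds 2 protein-coding transcription starts, among them that of HCFC1R1.

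The pairs RPL10A/TEAD3 and PPP1R15A/TULP2 were covered more after CPT than in NT in part of the libraries. RPL10A encodes a large ribosomal subunit protein and TEAD3 a TEA domain transcription factor, and their ends lie 2811 bp apart on chromosome 6. Peaks covered 45.6% and 89.0% of this region in NT, 82.4% and 100% at 5 min, and 95.6% and 100% at 60 min. RNase H peaks covered none of it in NT or in 5 min replicate 1. They covered 79.8% in 5 min replicate 2, and 22.5% and 93.7% at 60 min. In NT replicate 1 a peak stopped in the HindIII site printed above for this pair, and in NT replicate 2 a peak began there. PPP1R15A, the stress-induced gene of a phosphatase subunit also called GADD34, faces TULP2 over 4905 bp. This region was covered to 28.6% and 32.3% in NT, 28.6% and 36.3% at 5 min, and 85.1% and 100% at 60 min, so only the 60 min libraries stood apart. The RNase H lists covered 28.6% and 31.6% of it at 5 min, and 3.46% and 83.4% at 60 min.

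MFSD3/RECQL4, where RECQL4 encodes a DNA helicase, was covered to 100% in all DRIP libraries but 5 min replicate 1, at 88.4%. NDUFAF3/IMPDH2, with a complex I assembly factor and the enzyme of the committed step of guanine nucleotide synthesis, had 72.5% and 80.4% in NT, 40.5% and 80.4% at 5 min, and 66.5% and 93.7% at 60 min. A protein-coding transcription start lies in the NDUFAF3/IMPDH2 region. RPL7A/SURF1, a ribosomal protein gene and a cytochrome c oxidase assembly gene, had 100% in NT, 79.2% and 100% at 5 min, and 86.5% and 100% at 60 min. The lowest DRIP library was 5 min replicate 1 in each of these 3 pairs.

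Only AKR1C1/AKR1C2 had a peak in all 6 DRIP lists and in no RNase H list. These genes encode aldo-keto reductases of steroid metabolism and are close copies of each other, so reads can be shared between them and the values are uncertain. Peaks covered 38.1% and 41.9% of the region in NT, 37.0% and 38.0% at 5 min, and 18.8% and 36.5% at 60 min. All 6 lists had a peak that ended at position 5028257 in the SspI site printed above.

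**Figure D5:**
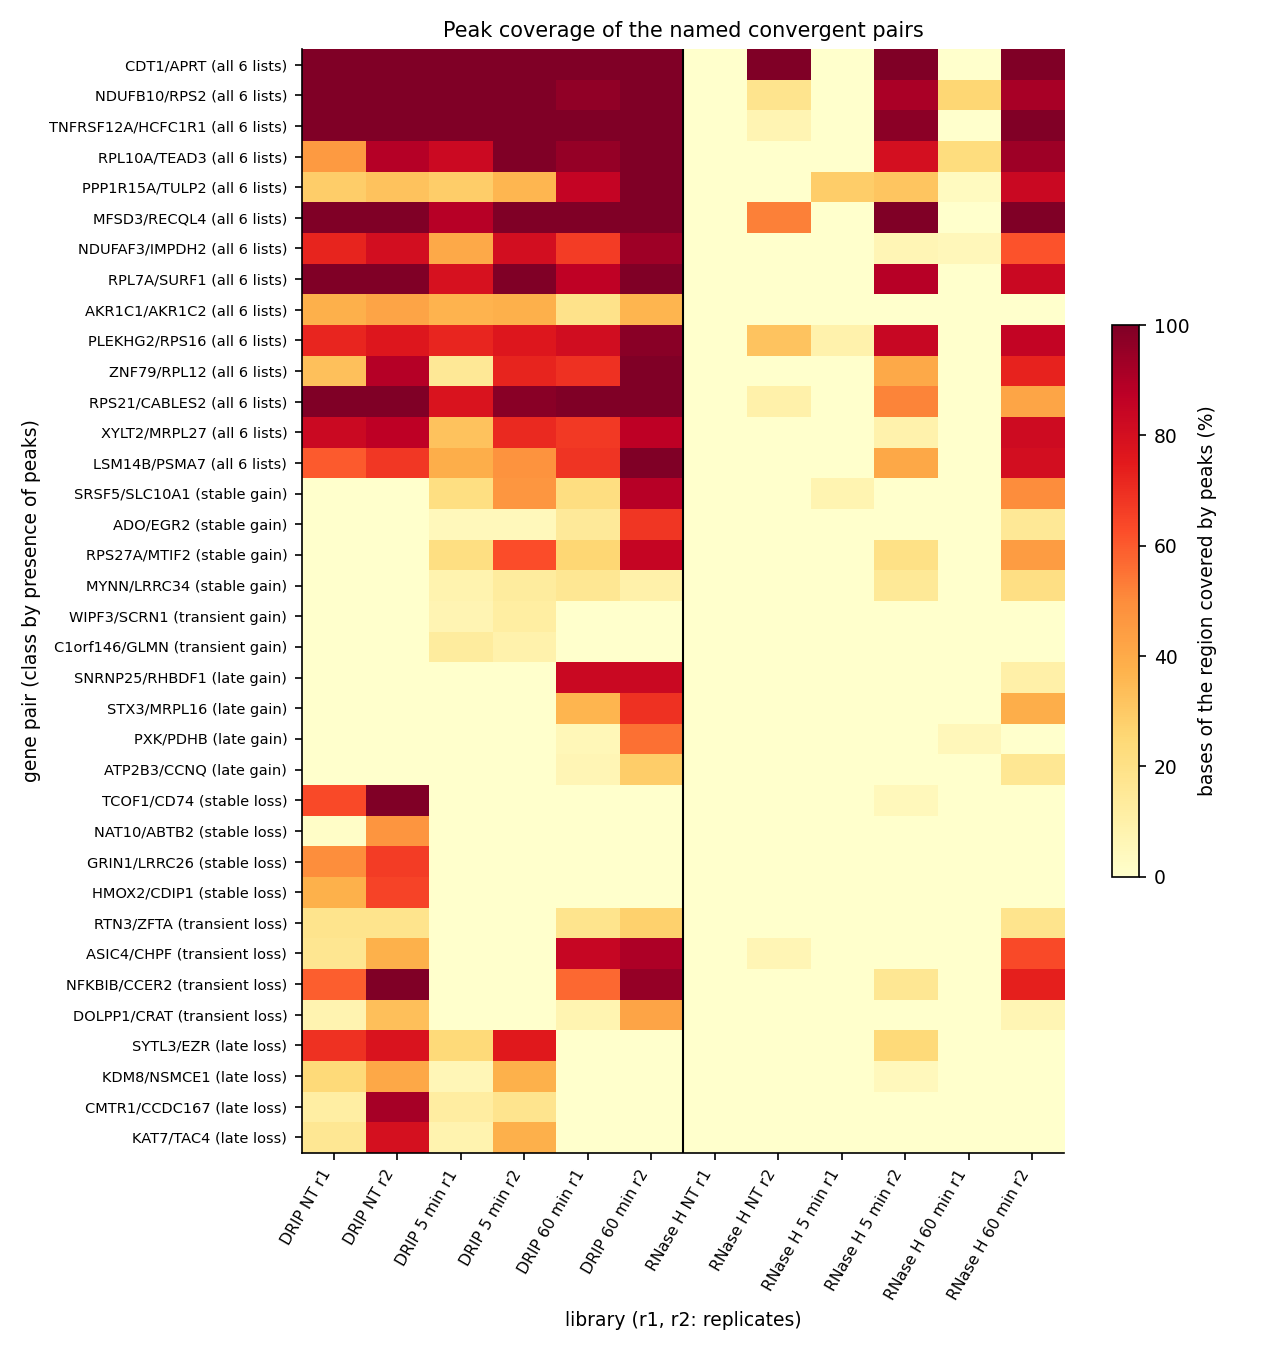
Percent of the bases of each named pair's region covered by peaks (colour, 0 to 100%), with pairs as rows and the 12 libraries as columns (r1 and r2 are replicates, RNase H libraries right of the line). Most pairs in all 6 lists are dark in the DRIP columns, with exceptions such as AKR1C1/AKR1C2 at 18.8% to 41.9%, gains are blank in NT, and losses are blank at the CPT times that define their class.

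Stable gains, absent in NT and present in both replicates at 5 and 60 min, numbered 10 pairs (0.902%), near the 0.864% of all ends in this class. Their median G+C was 39.4%, and 9 of the 10 lay under 45%. Only pairs with no NT peak can be gained, and of the 356 pairs in no DRIP list 222 lay under 45%, with a median of 42.2%. SRSF5/SLC10A1, a splicing factor gene facing the gene of a hepatic bile acid transporter over 3410 bp on chromosome 14, went from no peak in NT to 21.2% and 46.6% coverage at 5 min and 21.5% and 88.4% at 60 min. Both 5 min libraries had the same peak from 70237036 to 70238604, which ends shortly before the annotated 3′ end of SRSF5 at 70238722. RPS27A/MTIF2, where RPS27A encodes a ubiquitin-ribosomal fusion protein and MTIF2 a mitochondrial translation initiation factor, was covered to 21.2% and 62.7% at 5 min and 25.6% and 84.5% at 60 min. ADO/EGR2, where EGR2 is an immediate-early transcription factor gene, had 4.9% in both 5 min libraries and 14.6% and 68.1% at 60 min, with a peak starting in the HindIII site printed above in both 60 min libraries. Its 5 min peaks ended at 64566604. The peaks of 60 min replicate 1 started at 64568266 and 64573150 and did not overlap them. MYNN/LRRC34 had 8.3% and 13.1% at 5 min and 16.1% and 9.7% at 60 min. In replicate 2 the RNase H lists covered more of this last region than the DRIP lists did, with 15.1% at 5 min and 20.9% at 60 min. All 4 pairs had an RNase H peak in 1 or 2 lists, most of them in replicate 2.

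Transient gains, present at 5 min only, numbered 2 pairs (0.18%, against 0.283% of all ends), and both rested on low-ranking peaks. WIPF3/SCRN1 was covered to 7.3% and 11.7% at 5 min, by peaks at different places in the 2 replicates, at percentiles 39.3 and 27.0. C1orf146/GLMN was covered to 13.0% and 9.2%, at percentiles 28.6 and 2.0. Late gains, present at 60 min only, numbered 18 pairs (1.62%, against 1.31% of all ends), of which 10 lay under 45% G+C. Of the 356 pairs in no DRIP list, 222 lay under 45%. SNRNP25/RHBDF1 on chromosome 16, with a minor spliceosome protein gene, was covered to 83.2% in both 60 min libraries by a peak from 106405 to 110076 that had the same start and end in both. STX3/MRPL16, with genes of a syntaxin and of a mitochondrial ribosomal protein, had 36.7% and 69.5%. PXK/PDHB, with the gene of the pyruvate dehydrogenase E1 beta subunit, had 5.6% and 55.8%, and ATP2B3/CCNQ had 6.3% and 28.6%. Each of these 4 pairs had an RNase H peak at 60 min, which covered 10.3% of SNRNP25/RHBDF1, 38.7% of STX3/MRPL16 and 16.2% of ATP2B3/CCNQ in replicate 2 and 5.3% of PXK/PDHB in replicate 1.

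Stable losses, present in NT and absent at both CPT times, numbered 26 pairs (2.34%, against 1.37% of all ends) with a median G+C of 54.4%, and 23 of them lay at 50% or more. Of the 173 pairs in all 6 DRIP lists, which also had peaks in NT, 155 lay at 50% or more, with a median of 57.6%. Only regions with a peak in both NT libraries can enter a loss class, and these were 411 pairs and 3845 of all ends. Stable losses were 26 of those pairs and 275 of those ends, so the shares above do not show an excess of losses at pairs. TCOF1/CD74 on chromosome 5 was the strongest. TCOF1 encodes treacle, a nucleolar factor of ribosomal RNA synthesis, and CD74 the invariant chain of MHC class II. Peaks covered 63.5% and 100% of this region in NT, with 4 separate peaks in replicate 1 and 1 peak of 9167 bp in replicate 2, and none covered it in the 4 CPT libraries. NAT10/ABTB2, with an RNA acetyltransferase gene, had 1.2% and 46.9% in NT. GRIN1/LRRC26, whose ends lie 1 bp apart on chromosome 9, had 49.2% and 66.8%, and HMOX2/CDIP1, with the gene of the constitutive heme oxygenase, had 37.7% and 65.1%. The GRIN1/LRRC26 region takes in the whole of LRRC26 with its transcription start. Of these 4 pairs only TCOF1/CD74 had an RNase H peak, in 5 min replicate 2.

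Transient losses, absent at 5 min only, numbered 24 pairs (2.16%, against 0.839% of all ends) with a median G+C of 59.1%. They were 24 of the 411 pairs with a peak in both NT libraries, and 169 of the 3845 such ends. The 173 pairs in all 6 DRIP lists had a median G+C of 57.6%. NFKBIB/CCER2, with an inhibitor of NF-kappa B, was covered to 59.3% and 100% in NT and to 57.4% and 95.6% at 60 min. ASIC4/CHPF, with an ion channel gene and a chondroitin synthesis gene, had 16.98% and 37.8% in NT and 84.2% and 90.2% at 60 min, so its 60 min libraries stood above NT. RTN3/ZFTA, whose annotated ends touch on chromosome 11, had 17.98% in both NT libraries and 17.98% and 27.5% at 60 min. DOLPP1/CRAT had 8.0% and 33.3% in NT and 7.6% and 41.8% at 60 min. None of the 4 had a peak in either 5 min DRIP list. All 4 had an RNase H peak in 60 min replicate 2. It covered 73.5% of NFKBIB/CCER2, 63.7% of ASIC4/CHPF, 17.98% of RTN3/ZFTA and 6.83% of DOLPP1/CRAT.

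Late losses, absent at 60 min only, numbered 5 pairs (0.451%, against 0.243% of all ends). They were 5 of the 411 pairs with a peak in both NT libraries, and 49 of the 3845 such ends. SYTL3/EZR, where EZR encodes the membrane-cytoskeleton linker ezrin, had 69.3% and 77.8% in NT and 24.1% and 75.6% at 5 min. KDM8/NSMCE1, with a subunit gene of the SMC5/6 complex, had 23.8% and 40.7% in NT and 6.1% and 37.6% at 5 min. CMTR1/CCDC167, with an mRNA cap methyltransferase gene, had 11.7% and 91.8% in NT and 12.1% and 17.7% at 5 min, and KAT7/TAC4, with a histone acetyltransferase gene, had 16.3% and 79.4% in NT and 8.6% and 38.1% at 5 min. The replicates of NT differed widely in these last pairs. Another 495 pairs had a peak in only 1 replicate of some condition, or a pattern outside these classes, and were not assigned.

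Gene groups among the pairs were counted against the 15.6% of all pairs that were in all 6 DRIP lists. Of 85 cytosolic ribosomal protein genes, 14 were in convergent pairs, and 9 of these 14 pairs were in all 6 lists, 2 were stable gains and 1 was in no list. Beside those described, PLEKHG2/RPS16 was covered to 72.2% and 76.8% in NT and 81.2% and 97.9% at 60 min. ZNF79/RPL12 had 33.2% and 88.9% in NT, 15.5% and 72.5% at 5 min, and 69.4% and 100% at 60 min. RPS21/CABLES2 was covered over 100% of its region in every NT and 60 min library, and over 77.7% and 97.7% at 5 min. The RPS21/CABLES2 region takes in the whole of RPS21 with its transcription start. The stable gains were RPS27A/MTIF2 and KLB/RPL9.

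Of 10 pairs with a proteasome subunit gene, 6 were in all 6 lists and none was without a peak. LSM14B/PSMA7, where PSMA7 encodes a subunit of the 20S core, had 59.8% and 67.7% in NT, 38.8% and 48.0% at 5 min, and 68.5% and 100% at 60 min. The 5 min libraries were both below NT and the 60 min libraries both above it. Of 8 pairs with a mitochondrial ribosomal protein gene, 2 were in all 6 lists, among them XYLT2/MRPL27, with 83.0% and 86.9% in NT, 32.1% and 71.1% at 5 min, and 67.3% and 86.9% at 60 min. None of 7 pairs with an aminoacyl-tRNA synthetase gene was in all 6 lists, and 3 were in none. Of 24 pairs with a ZNF zinc finger gene, 4 were in all 6 and 12 in none. The termination and 3′ processing factors CPSF7 and CSTF2 were the members of that group of 19 in pairs. TMEM216/CPSF7 had a peak in 3 lists and CSTF2/NOX1 in none. ACTB, ENSA, GEMIN7 and AKIRIN1, which the literature uses as examples of hybrids at terminators, were in no convergent pair. These groups are small and were described by their counts only.

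The pairs with the shortest gaps did not share an outcome. CFB/NELFE, with the gene of complement factor B and that of a subunit of the negative elongation factor, and FHIP1A/GATB both had touching ends and no peak in any list. REC114/NPTN, also touching, had 10.7% coverage in 60 min replicate 2 alone, at percentile 1.9.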

How the data were processed

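The 6 DRIP and 6 RNase H peak lists of HCT116 cells were analysed, grouped by the sample labels; inputs were used only inside the peak calls. Per the authors, reads were cleaned of adapters (Cutadapt) and mapped with BWA to hg19 and to yeast, the spike-in. Blacklisted regions and duplicate reads were dropped (SAMtools, Picard). MACS2 then called peaks library by library, with the matching input as control and no pooling of replicates. The MACS2 version and threshold for DRIP-seq are not given in the sources used here, and the lowest deposited −log10 q was 1.301 to 1.311. Per the authors' methods, differential hybrids were tested on spike-in normalized reads with limma, which was not repeated because the lists hold no counts. The deposited fold enrichment, a ratio of peak to input, was turned into a percentile within its list. The deposited −log10 p ranked peaks for lists of equal size (30314 for DRIP, 473 for RNase H). The deposited score entered no result. The precision is limited by 2 libraries per condition, and the peak files hold no depth.

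Genes were taken from GENCODE release 44 lifted to GRCh37, on chromosomes 1 to 22, X and Y, leaving out copies on Y of genes on X; chromosome names matched those of the lists. Isolated and tandem regions ran from 2 kb inside the gene to 3412 bp downstream, the median gap plus 2 kb. Coverage is the share of bases under at least 1 peak. Differences within libraries were tested by all 64 sign flips and conditions by exact permutation of 2 against 2 libraries, both two-sided, with Benjamini-Hochberg adjustment over the 7 sign-flip tests. Pairs and lists were chosen with earlier results of these data known. Named were the 8 top pairs in all 6 DRIP lists, up to 5 of these with no RNase H peak, the 4 top pairs of each class of gain or loss, the 3 with the shortest gaps, and up to 8 group pairs in all 6 lists, ranked by the weakest of their percentiles among the libraries that define the class. KLB/RPL9, TMEM216/CPSF7, CSTF2/NOX1 and the pairs whose gap is printed were named beside this rule after their values were seen. The classes by restriction fragment were also chosen after seeing the data. Coverage, presence and the exact tests were first checked on simulated lists of peaks with known answers. Python 3.11.15, NumPy 2.4.6, pandas 2.3.3, SciPy 1.17.1 and Matplotlib 3.10.9 were used.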

Additional observations from a re-analysis of the deposited data

Results flagged for a closer look

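In 3 of the named pairs the change in covered bases ran in opposite directions at the CPT times. Each library was set against the NT library of the same number, and was below it at 5 min and above it at 60 min. At ZNF79/RPL12 the conditions overlapped across replicates. There 5 min replicate 2 had 72.5% and NT replicate 1 33.2%, and 60 min replicate 1 had 69.4% and NT replicate 2 88.9%. At ASIC4/CHPF coverage differed from NT by -1145.5 bp on average at 5 min and by 2501.5 bp at 60 min, a difference of 3647 bp between the times. At ZNF79/RPL12 the changes were -1074 and 1491 bp, 2565 bp apart. At LSM14B/PSMA7 they were -1090.5 and 1099.5 bp, 2190 bp apart. In replicate 1 and 2 the changes at 60 min were 2811 and 2192 bp for ASIC4/CHPF, 2284 and 698 bp for ZNF79/RPL12, and 466 and 1733 bp for LSM14B/PSMA7. The difference between the times was not tested for single pairs, and RNase H replicate 2 at 60 min covered 63.7%, 72.7% and 80.4% of these regions.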

How the results depend on the processing

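The excess over isolated ends stayed between 4.59 and 18.02 points in coverage and between 17.9 and 30.7 points in the share of regions with a peak over all alternatives that kept 6 libraries. The difference from tandem ends turned to 1.19 points with windows of 2 kb either side of each end, 2.35 with gaps of at most 2 kb and 5.65 without transcription starts. The last setting keeps only tandem ends whose next gene starts more than 3412 bp downstream. The RNase H excess was 0.73 points with lists of equal size and 0.38 with peaks shared by both replicates (exact sign-flip p = 0.03125 for each). It was 3.22 points with a −log10 q of at least 3 and 1.21 points at 40 to 50% G+C, and the gap against gene ends -2.21 points without DRIP peaks that met RNase H peaks (exact sign-flip p = 0.0625 for each). At 40 to 50% G+C the change in coverage was 0.0595 points at 5 min and 4.27 at 60 min. In that class DRIP exceeded RNase H by 4.64 points, the gap differed from the gene ends by -1.25 points and short gaps from longer ones by 5.34 points (exact sign-flip p = 0.03125 for each).

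Without DRIP peaks that met RNase H peaks, the 60 min change was -9.67 points, the change between the CPT times 2.86 points and the log2 ratio at 60 min -0.67. This filter removed a larger share of the DRIP peaks at convergent regions after CPT than in NT. These values are therefore not a measure of the CPT effect alone.

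Gains at 5 min numbered 9 with the stricter −log10 q, 11 with lists of equal size, 29 with peaks shared by both replicates, 31 with windows of 2 kb, 8 with gaps of at most 2 kb and 8 at 40 to 50% G+C. Losses at 5 min numbered 192 with shared peaks, 139 with windows, 45 with gaps of at most 2 kb and 8 at 40 to 50% G+C. Gains at 60 min numbered 27 without DRIP peaks that met RNase H peaks, 84 with shared peaks, 94 with windows, 27 with gaps of at most 2 kb and 23 at 40 to 50% G+C. Losses at 60 min numbered 83 with lists of equal size, 111 with shared peaks, 93 with windows and 7 at 40 to 50% G+C. Windows count each end of a pair, and the limits on gap or G+C leave fewer pairs. No share over all ends is given under these settings. The counts show only how the calls depend on the setting, and not whether pairs differ from other ends.

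With either replicate left out, 3 libraries allow no p under 0.25. The differences then ranged from 10.2 to 18.2 points for coverage and 23.2 to 34.3 for the share of regions against isolated ends, 0.11 to 6.93 for RNase H, 11.96 to 13.5 for DRIP against RNase H, -4.70 to -3.14 for the gap and 8.94 to 13.6 for short gaps. Pairs gained numbered 40 to 88 at 5 min and 88 to 117 at 60 min, and pairs lost 182 to 228 and 126 to 154.

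With the replicate number as a block, the changes were -11.6 and -3.04 points at 5 and 60 min, 8.54 points between the times, and -0.48 and -0.38 on the log2 scale, each with the smallest exact p of 0.5 that 2 pairs allow. Deviations of same-numbered libraries correlated at 0.221 to 0.432 over pairs. The libraries share only a number by their labels.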
